A study of Rattus norvegicus with 15 samples.

Results

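Lung RNA of rats that received lipopolysaccharide (LPS) into the trachea together with Sang Ju Yin by mouth was compared with lung RNA of normal rats. Both groups of 5 libraries, the 5 named SJY and the 5 named control, were taken, which is 10 of the 15 libraries of the series. Genes entered when they reached 1 FPKM in at least 5 of these 10 libraries, and 13139 of the 22250 genes in the deposited table did. FPKM is the number of fragments on a gene, scaled for the gene's length and for the library's total. All rats were wild type. SJY rats carried both agents, LPS and the herbal formula, and control rats carried neither. The remaining 5 libraries, named ALI for acute lung injury, came from rats that received LPS alone. They are used only for values set beside those of the SJY group and in an alternative fit of all 15 libraries. The variance in that fit includes the spread between ALI libraries. Strain, age, sex, doses, the interval between LPS and sampling and the hour of sampling are not in the labels, which also name no animals given a sham instillation or the formula without LPS. LPS and the formula therefore cannot be told apart in this comparison. Nothing states if each library is 1 animal or a pool, so the p-values measure the spread between these libraries.

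LPS, a component of the outer membrane of Gram-negative bacteria, is carried by Lbp to Cd14 and sensed by Tlr4 on macrophages and epithelium. Signalling through Myd88 and Ticam adaptors activates NF-kB and interferon regulatory factors, and the chemokines that follow draw neutrophils and monocytes from blood into the airspace. The alveolar wall that they cross consists of thin type I cells, which carry gas exchange, and of type II cells, which make surfactant. Sang Ju Yin is a decoction of traditional Chinese medicine named after mulberry leaf and chrysanthemum flower.

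The libraries held about 12072000 to 13682000 reads, recovered from the FPKM steps, so depth differed by at most 1.16 times over the series. Over the 500 most variable genes, principal component 1 carried 64.95% of the variance and separated the groups without overlap. SJY 1 and control 4 stood apart from their groups in median rank correlation, at 0.959 and 0.952. The lung genes Sftpc, Scgb1a1 and Ager, given below, were expressed in all 10 libraries. Mitochondrially encoded genes took 10.4 to 17.1% of the summed FPKM in SJY and 5.19 to 9.62% in control. All values below are FPKM, as mean ± SD of 5 libraries, and fold changes are on the log2(FPKM + 1) scale, which understates the change of low genes.

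In the SJY group 5743 of 13139 genes differed from control at an adjusted p under 0.05 (limma, Benjamini-Hochberg), which is 43.7% of the genes tested. Of these, 2316 were higher (17.6%) and 3427 were lower (26.1%). At least 2-fold changes were found in 477 higher genes (3.63%) and 686 lower genes (5.22%). The 5 libraries of 1 group lay wholly above the 5 of the other in 3686 genes (28.1%). With the median of all genes aligned between libraries the same test gave 2919 higher and 2940 lower genes, so the excess of lower genes depended on the scaling. Without SJY 1 and control 4 there were 6559 calls, 2896 higher and 3663 lower, and 5478 of the 5743 remained in the same direction. The median log2 fold change of all genes was -0.11, and members of each group below are read against it.

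Gene length moved with the comparison. Genes called higher had a median length of 1521 bases and those called lower a median of 3060 bases. Among 1539 genes under 1000 bases the median log2 fold change was 0.26, and 37.2% were called higher and 11% lower. Among 2557 genes over 4000 bases the median was -0.33, with 5.16% called higher and 43.5% lower. This gap between long and short genes, taken relative to the control mean, was negative in every SJY library, from -0.99 in SJY 1 to -0.42 in SJY 6. Control 4 had a gap of -0.38, and the other control libraries lay between -0.03 and 0.16. After the trend on length had been removed from each library, 2729 genes were called higher and 2599 lower, and 4236 of the 5743 calls remained in the same direction. Several groups of short or long genes are therefore given with that value too.

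**Figure D1:**
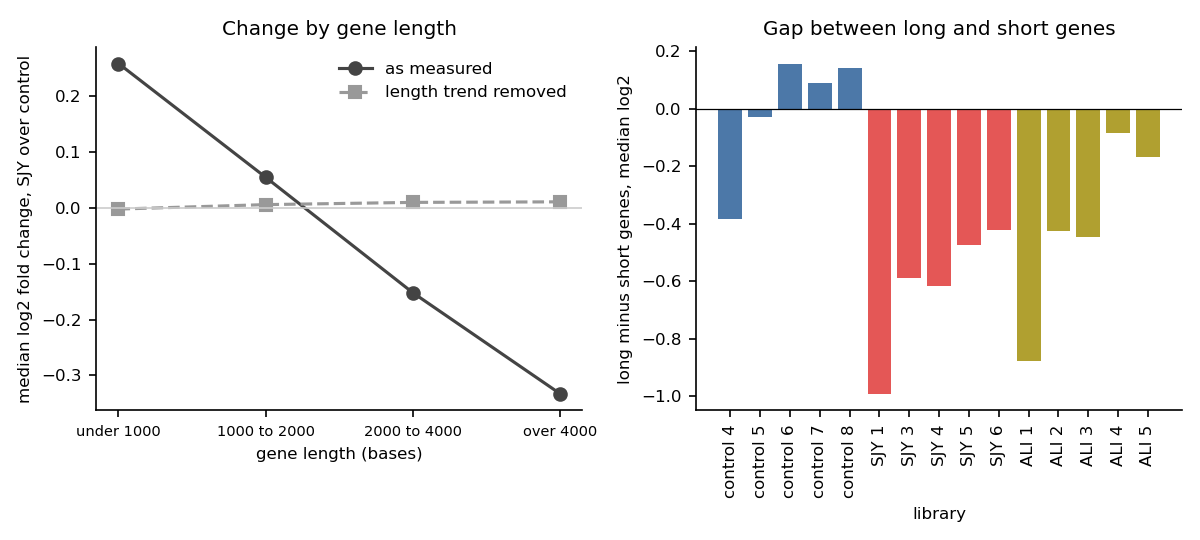
Median log2 fold change of SJY over control for genes in 4 classes of length, as measured and after the trend on length was removed from each library (left), and the gap in median log2 value between genes over 4000 and under 1000 bases in each library relative to the control mean (right). Short genes lie above 0 and long genes below, and all 5 SJY libraries have a negative gap.

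Neutrophil genes had the highest median change of the 51 gene lists examined. S100a8, a calcium-binding alarmin of the neutrophil cytosol, stood at 18.3, 24.9, 5.67, 9.83 and 12.6 FPKM in control 4 to 8 and at 4094, 3098, 2901, 2216 and 3322 FPKM in SJY 1, 3, 4, 5 and 6. Its partner S100a9 stood at 42.6, 46.7, 21.7, 40.5 and 35.3 FPKM in control and at 7143, 5690.1, 5449, 4207 and 6636 FPKM in SJY. The lowest SJY library lay far above the highest control library for both genes. The fitted rise of S100a8 was 7.80 ± 0.31 (log2, SE; adjusted p 6.2e-09) and that of S100a9 was 7.27 ± 0.20 (adjusted p 1.49e-10). Mmp8, the neutrophil collagenase, rose from 1.97 ± 0.584 to 177 ± 41.1 FPKM, by 5.90 on the log2 scale (adjusted p 2.34e-10). Il1r2, the decoy receptor of interleukin-1, rose from 1.98 ± 1.31 to 147 ± 42.2 FPKM. Prok2, a chemoattractant peptide stored in neutrophils, rose from 1.03 ± 0.495 to 86.9 ± 20.1 FPKM. Csf3r, the receptor of granulocyte colony-stimulating factor, rose from 8.05 ± 1.47 to 173 ± 13.4 FPKM. S100 genes have close copies that could have shared reads.

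Both receptors for the neutrophil-attracting CXC chemokines were measured, and they went in opposite directions. Cxcr2 stood at 3.03, 3.16, 4.49, 2.09 and 2.67 FPKM in control and at 107, 82.01, 84.8, 69.4 and 115 FPKM in SJY. Cxcr1 stood at 11.04, 8.52, 9.58, 13.9 and 15.1 FPKM in control and at 2.72, 3.58, 5.301, 4.06 and 3.79 FPKM in SJY. The groups did not overlap for either gene. Cxcr2 rose by 4.50 (adjusted p 2.25e-09) and Cxcr1 fell by 1.36 on the log2 scale (adjusted p 0.000104). In all, 24 of the listed neutrophil genes could be tested, of which 2 passed the filter through the SJY libraries alone, 22 were called higher, 1 lower and 1 was not called, with a median log2 fold change of 3.02. Their summed level was 279 to 370.1 FPKM in the control libraries and 9099 to 15815 FPKM in the SJY libraries. In lung tissue a change in the number of cells of a type and a change in RNA per cell cannot be told apart, here or in any later group.

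**Figure D2:**
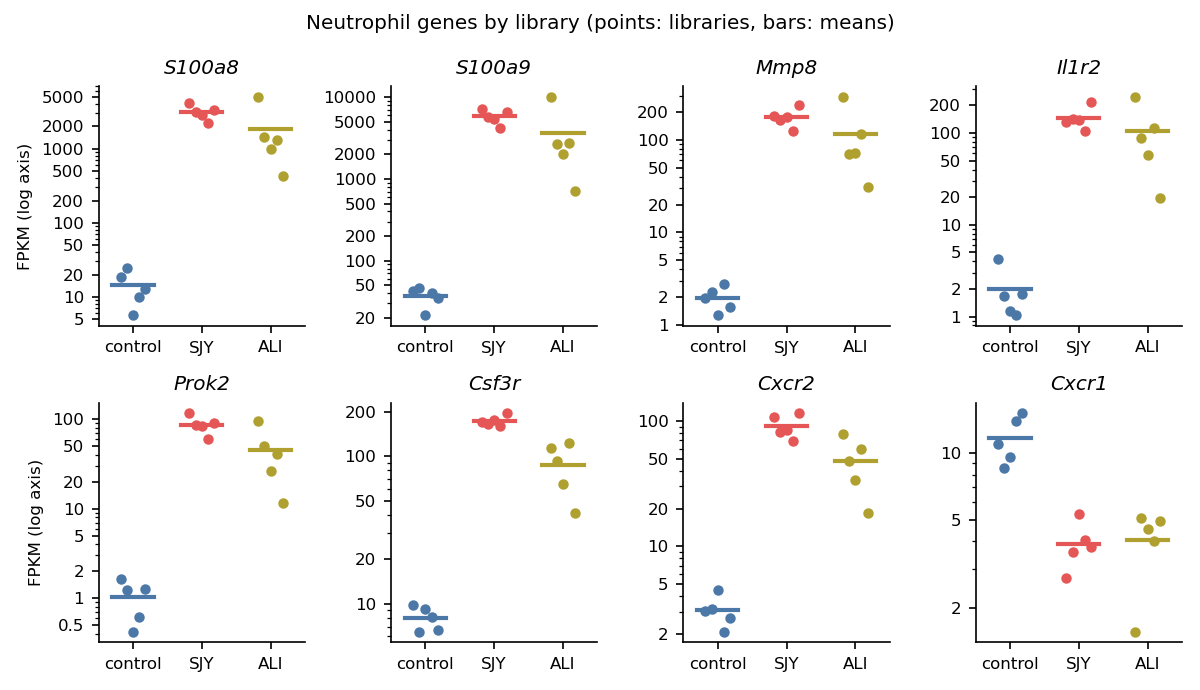
FPKM on a log axis in each library for 8 neutrophil genes, in the control, SJY and ALI groups (points are libraries, bars are means). For S100a8, S100a9, Mmp8, Il1r2, Prok2, Cxcr2 and Csf3r all 5 SJY libraries lie above all control libraries, and for Cxcr1 they lie below.

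Chemokines and cytokines rose in part. Cxcl13, which attracts B cells, stood at 8.95, 4.29, 5.93, 5.402 and 12.1 FPKM in control and at 412, 219, 462, 138 and 81.9 FPKM in SJY, so the SJY libraries spread widely while all lay above control (log2 fold change 4.79 ± 0.47, adjusted p 5.2e-05). The monocyte attractants Ccl12, Ccl7 and Ccl2 rose by 4.38, 3.75 and 3.19 on the log2 scale. Ccl12 went from 0.523 ± 0.50002 to 31.4 ± 11.5 FPKM, Ccl7 from 2.36 ± 1.92 to 40.3 ± 6.58 FPKM and Ccl2 from 4.8001 ± 1.34 to 51.2 ± 8.53 FPKM. Cxcl14, an epithelial chemokine, fell from 30.1 ± 9.79 to 11.3 ± 4.31 FPKM (adjusted p 0.00103). Among 29 chemokines tested 14 were called higher and 2 lower, with a median log2 fold change of 0.87. With the length trend removed 14 were called higher and 4 lower.

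Il1b, the inflammasome-processed cytokine, stood at 20.03, 12.2, 21.6, 27.6 and 13.1 FPKM in control and at 130.1, 149, 134, 112 and 93.3 FPKM in SJY. Its antagonist Il1rn rose beside it, from 15.5 ± 4.54 to 82.5 ± 12.6 FPKM, by 2.39 on the log2 scale against 2.69 for Il1b. Il10, an anti-inflammatory cytokine, rose from 1.23 ± 0.701 to 6.88 ± 3.73 FPKM. Il6 stood at 0.525, 0, 0.394, 0 and 0.0783 FPKM in control and at 3.09, 4.97, 2.62, 3.74 and 5.96 FPKM in SJY, and since it passed the filter through the SJY libraries alone, its groups had to differ. Il6st, the shared signalling receptor of the interleukin-6 family, fell from 67.3 ± 22.9 to 32.5 ± 10.9 FPKM (adjusted p 0.0146). Lifr, its partner for leukaemia inhibitory factor, fell from 30.4 ± 12.5 to 4.11 ± 1.84 FPKM (adjusted p 0.000184). Lifr is outside the list counted next. Of 26 cytokines and receptors 12 were called higher, Il6 included, and 3 lower, 1 of which passed the filter through control alone. In the TNF superfamilies 9 of 22 members were called higher and 2 lower, led by the T cell costimulator Tnfrsf9 (0.585 ± 0.374 to 2.87 ± 0.752 FPKM) and by Tnfsf14 (1.303 ± 0.581 to 4.09 ± 1.26 FPKM). Without SJY 1 and control 4, 17 of the 22 were called.

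The sensors of LPS were not moved alike. Cd14 rose from 29.9 ± 5.04 to 123 ± 28.7 FPKM, Tlr2, the sensor of bacterial lipoproteins, from 6.84 ± 3.82 to 31.7 ± 5.398 FPKM, and Lbp from 13.99 ± 1.88 to 45.4 ± 8.66 FPKM. Tlr4 stood at 5.79, 6.03, 9.31, 8.11 and 8.47 FPKM in control and at 5.27, 4.38, 6.37, 5.53 and 4.75 FPKM in SJY, with overlapping groups. Tlr4 was called lower (log2 fold change -0.44, adjusted p 0.0327), but not without control 6 (0.0889), control 7 (0.0765), control 8 (0.0781), SJY 3 (0.0811) or SJY 6 (0.0669), and not with the length trend removed (0.22) or after median alignment (0.0774). The inflammasome sensor Nlrp3 rose from 4.61 ± 0.299 to 13.02 ± 0.805 FPKM (adjusted p 1.29e-06). In all 11 of 17 genes of LPS recognition and the inflammasome were called higher and 2 lower.

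NF-kB components and feedback genes rose in 17 of 24 members, and none of those tested was called lower. The mitochondrial superoxide dismutase Sod2 rose from 65.6 ± 11.2 to 352 ± 63.7 FPKM (log2 fold change 2.40), the ubiquitin ligase Birc3 from 11.99 ± 2.36 to 43.3 ± 9.34 FPKM, the transcription factor Cebpb from 91.4 ± 29.8 to 284 ± 153 FPKM, and Irak3, an inhibitor of Toll-like receptor signalling, from 9.598 ± 2.01 to 28.7 ± 7.09 FPKM. Of 24 members 17 were called higher, with a median of 0.83 on the log2 scale. The subunits Rela and Rel, also picked after their values were seen, were not called, at 54.6 ± 6.33 and 53.7 ± 4.41 FPKM for Rela and 6.97 ± 2.16 and 4.66 ± 1.17 FPKM for Rel in control and SJY. With the length trend removed 20 of the 24 were called higher. The NF-kB-like letters GGGNNTTCC, on either strand, lay in the RefSeq promoters of 5 of 19 members (26.3%), against 5.16% of all promoters of the same length and 6.09% of those of tested genes.

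Interferon-induced genes rose in 24 of 34 tested members. Promoter sequences of 3 members are shown because the motif read by interferon-activated factors lies in them. They are the 250 bases before the RefSeq gene start in the build GRCr8, on the gene's strand, at chr1:241527076-241527325 (plus strand) for Ifit3, chr12:41439482-41439731 (plus strand) for Oas3 and chr1:205800024-205800273 (minus strand) for Irf7, with matches to the motif core TTTCNNTTT on either strand in capitals.
Ifit3: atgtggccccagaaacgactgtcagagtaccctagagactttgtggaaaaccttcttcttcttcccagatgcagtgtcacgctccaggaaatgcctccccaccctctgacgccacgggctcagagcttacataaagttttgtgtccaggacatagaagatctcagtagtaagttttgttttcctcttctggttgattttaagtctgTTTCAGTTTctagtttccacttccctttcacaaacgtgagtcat
Oas3: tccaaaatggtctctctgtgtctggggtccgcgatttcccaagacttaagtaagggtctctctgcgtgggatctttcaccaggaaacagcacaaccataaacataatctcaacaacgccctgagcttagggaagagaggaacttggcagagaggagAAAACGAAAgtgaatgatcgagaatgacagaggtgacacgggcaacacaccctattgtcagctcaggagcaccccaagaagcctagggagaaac
Irf7: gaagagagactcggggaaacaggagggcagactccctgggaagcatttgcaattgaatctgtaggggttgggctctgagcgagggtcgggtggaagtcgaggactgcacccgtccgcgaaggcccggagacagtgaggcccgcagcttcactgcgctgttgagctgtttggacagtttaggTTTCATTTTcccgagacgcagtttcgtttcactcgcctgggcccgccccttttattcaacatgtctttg
The core lay 44 bases before the start in Ifit3, 94 in Oas3 and 69 in Irf7. Of 34 tested members of the interferon list 22 had a promoter in the RefSeq table and 15 of these (68.2%) held the core, against 10.1% of all 27457 promoters of the same length and 7.27% of those of tested genes. A match describes letters and does not show binding, and overlaps with other motifs were not counted.

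Ifit1, which binds foreign RNA caps, stood at 1.29, 0.9902, 0.239, 0.534 and 0.158 FPKM in control and at 19.9, 14.4, 15.6, 11.5 and 18.1 FPKM in SJY, without overlap (log2 fold change 3.39 ± 0.21, adjusted p 1.76e-07). Ifit3, whose promoter is shown above, rose from 13.6 ± 4.17 to 74.1 ± 15.3 FPKM. Oasl, a member of the oligoadenylate synthetase family, rose from 3.57 ± 1.53 to 21.8 ± 2.15 FPKM and Ifi27l2b from 39.8 ± 9.61 to 216 ± 66.4 FPKM. Oas3 and Irf7, picked for their promoters after their values were seen, rose from 1.15 ± 0.297 to 8.09 ± 1.77 FPKM and from 23.9 ± 9.11 to 85.99 ± 15.9 FPKM. Irf7 is the factor that amplifies type I interferon, and its libraries stood at 14.6, 13.9, 26.9, 31.3 and 32.8 FPKM in control and at 109.6, 83.3, 65.1, 83.6 and 88.3 FPKM in SJY. Ifitm6, a membrane protein of the interferon-induced family, rose from 3.59 ± 1.81 to 226 ± 48.3 FPKM, by 5.68 on the log2 scale. It is not a member of this list and is not in its counts. Of the 34 genes 24 were called higher, and 1 was called lower, the RNA sensor Ddx58 (8.37 ± 2.96 to 4.81 ± 0.619 FPKM, adjusted p 0.0204). The Ddx58 call did not hold without control 6 (adjusted p 0.0556) or control 8 (0.0523).

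Genes induced mainly by interferon-gamma gave a different count, with 4 of 15 called higher (26.7%) and 1 lower (6.67%). Of all genes 17.6% were called higher and 26.1% lower. Serping1, the inhibitor of complement C1, rose from 151 ± 13.3 to 453 ± 51.8 FPKM, the guanylate-binding proteins Gbp4 and Gbp2 rose to 6.67 ± 0.655 and 69.5 ± 9.54 FPKM from 3.43 ± 1.29 and 40.8 ± 12.4 FPKM, and Ciita, the master regulator of MHC class II, fell from 9.06 ± 1.13 to 5.18 ± 2.36 FPKM (adjusted p 0.00879, or 0.0778 with the length trend removed). The median of this list was 0.09. The difference between these lists was not tested.

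MHC class I loading genes were called higher in 10 of 15 tested members, and none was called lower. B2m, the light chain of class I, rose from 1449 ± 255 to 3117 ± 629.7 FPKM, the immunoproteasome subunit Psmb10 from 65.1 ± 15.3 to 137 ± 9.08 FPKM, the proteasome activator Psme2 from 61.2 ± 13.2 to 128 ± 8.48 FPKM and the chaperone Calr from 299.7 ± 43.3 to 603 ± 74.7 FPKM. Among MHC class II and dendritic cell genes 2 of 16 were called higher (12.5%) and 4 lower (25%), near the shares of all genes. Flt3, the growth factor receptor of dendritic cell precursors, fell from 7.696 ± 0.992 to 3.39 ± 1.597 FPKM, and Fscn1, an actin-bundling protein of mature dendritic cells, rose from 6.203 ± 2.13 to 12.9 ± 2.903 FPKM. Without SJY 1 and control 4, 3 of these 16 were called in all. MHC genes have close copies, so their reads may have been shared.

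**Figure D3:**
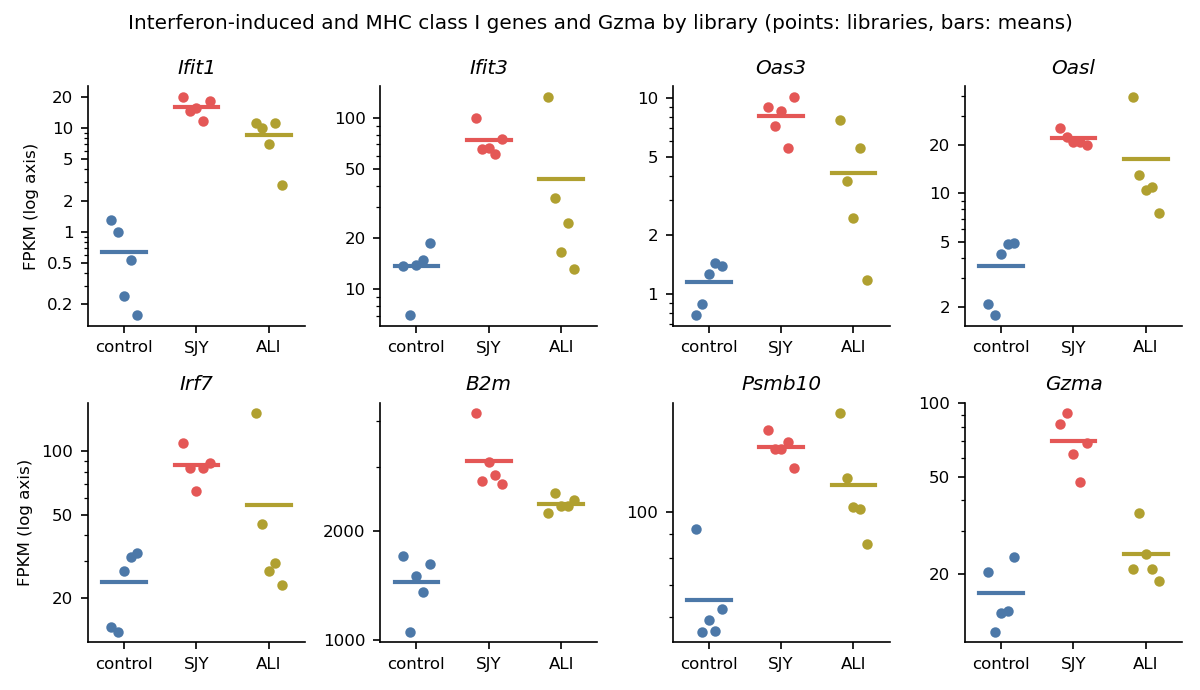
FPKM on a log axis in each library for 5 interferon-induced genes, 2 genes of MHC class I loading and Gzma, in the control, SJY and ALI groups (points are libraries, bars are means). All 5 SJY libraries lie above all control libraries for each gene shown, and for Gzma they also lie above all ALI libraries.

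Genes of monocytes and recruited macrophages rose more often than they fell. Vcan, a matrix proteoglycan made by inflammatory monocytes, rose from 0.951 ± 0.3901 to 23.1 ± 9.15 FPKM (log2 fold change 3.56), Folr2, a folate receptor of tissue macrophages, from 6.12 ± 1.48 to 52.3 ± 9.84 FPKM, and Ms4a6a from 4.23 ± 1.36 to 23.1 ± 5.39 FPKM. Apoe, a lipid carrier of macrophages, fell from 520.2 ± 125 to 261 ± 113 FPKM (adjusted p 0.00414, or 0.141 when all 15 libraries shared 1 fit). Of 25 genes in this list 14 were called higher (56%) and 1 lower (4%), against 17.6% and 26.1% of all genes.

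In the alveolar macrophage list 10 of 21 genes were called higher (47.6%) and 6 lower (28.6%), against 17.6% and 26.1% of all genes. The lower share was thus near that of all genes. Chi3l1, a chitinase-like protein, rose from 48.7 ± 10.1 to 462 ± 26.9 FPKM. The scavenger receptor Marco was listed at 0 in all 5 control libraries and stood at 2.03, 2.02, 4.89, 2.04 and 1.54 FPKM in SJY, so it passed the filter through the SJY libraries alone and had to differ. Msr1, another scavenger receptor, rose from 3.46 ± 1.13 to 11.5 ± 4.52 FPKM and the fatty acid carrier Fabp4 from 9.48 ± 4.14 to 25.4 ± 5.12 FPKM. Pparg, the nuclear receptor on which alveolar macrophage identity depends, fell from 12.9 ± 2.53 to 7.202 ± 0.763 FPKM (adjusted p 0.00118), and Perp, a desmosome protein, fell from 63.5 ± 5.99 to 26.97 ± 3.64 FPKM.

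Pattern receptors of myeloid cells rose in 18 of 24 tested members and fell in 1, with a median log2 fold change of 1.54. Clec4e, which recognises mycobacterial glycolipid, rose from 9.198 ± 5.804 to 78.1 ± 13.4 FPKM, its partner Clec4d from 5.08 ± 1.89 to 34.99 ± 5.55 FPKM and the inhibitory receptor Lilrb4 from 101 ± 37.7 to 460.04 ± 63.7 FPKM. Clec10a, a galactose-binding lectin, fell from 21.4 ± 4.58 to 9.88 ± 3.11 FPKM. The phagocyte oxidase subunits Ncf4, Ncf1 and Cyba rose to 127 ± 11.8, 75.1 ± 15.6 and 340.2 ± 32.5 FPKM from 23.9 ± 3.74, 22.3 ± 4.04 and 119 ± 20.3 FPKM. Acod1, which makes itaconate, rose from 1.304 ± 0.584 to 27.7 ± 17.9 FPKM. The epithelial oxidase Duox1 fell from 2.198 ± 0.525 to 0.955 ± 0.337 FPKM. In its list of 16 genes 7 were called higher (43.8%) and 4 lower (25%), against 17.6% and 26.1% of all genes.

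Secreted defence proteins followed. Orm1, an acute phase glycoprotein, stood at 0.461, 0.154, 0, 0.155 and 0.401 FPKM in control and at 25.8, 38.1, 107, 46.01 and 39.9 FPKM in SJY, with 1 high library, SJY 4. Orm1 passed the filter through the SJY libraries alone, so its groups had to differ. Its log2 fold change, given as a description, was 5.25 on the log2(FPKM + 1) scale and 7.80 on recovered read counts. Lcn2, which binds bacterial siderophores, rose from 128 ± 34.2 to 2821 ± 771 FPKM, the phospholipase Pla2g2a from 18.7 ± 10.5 to 361 ± 189 FPKM and haptoglobin, Hp, from 20.6 ± 4.94 to 238 ± 66.95 FPKM. Of 14 acute phase genes 9 were called higher and 1 lower, with a median of 1.51.

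Metal-binding genes rose beside them, in 12 of 20 members against 3 that fell. Mt2A, a metallothionein, rose from 61.9 ± 44.5 to 991 ± 478 FPKM and Mt1 from 10.3 ± 5.69 to 85.3 ± 32.2 FPKM, and these copies may have shared reads. The ferrireductase Steap4 rose from 3.398 ± 2.44 to 41.8 ± 10.1 FPKM. Haem oxygenase, Hmox1, rose from 35.9 ± 4.85 to 98.3 ± 21.4 FPKM. The zinc importer Slc39a4 fell from 93.6 ± 15.8 to 61.7 ± 12.2 FPKM.

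Of 38 complement and coagulation genes 17 were called higher (44.7%) and 9 lower (23.7%), against 17.6% and 26.1% of all genes. The proteases C1s and C1r of the classical pathway rose to 109 ± 6.005 and 183 ± 9.54 FPKM from 24.4 ± 6.36 and 51.3 ± 4.94 FPKM. The anaphylatoxin receptor C5ar1 rose from 26.4 ± 4.43 to 101 ± 11.9 FPKM, while C5, the precursor of its ligand, fell from 11.9 ± 2.404 to 5.03 ± 1.56 FPKM. Properdin, Cfp, rose from 32.7 ± 3.97 to 126 ± 20.03 FPKM, and the complement regulator Cd55 fell from 30.3 ± 7.42 to 15.9 ± 4.55 FPKM. The urokinase receptor Plaur rose from 20.1 ± 2.45 to 43.8 ± 12.2 FPKM and urokinase itself, Plau, fell from 18.5 ± 1.65 to 9.77 ± 2.16 FPKM (adjusted p 0.00068, or 0.0556 in the fit of 15 libraries).

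Eicosanoid genes rose in 10 of 22 members, among them 1 that passed the filter through SJY alone, and fell in 3. The leukotriene B4 receptor Ltb4r rose from 0.558 ± 0.338 to 19.004 ± 3.097 FPKM, Pla2g7, which degrades platelet-activating factor, from 7.59 ± 2.52 to 101 ± 14.02 FPKM and Alox5ap, the helper of 5-lipoxygenase, from 48.5 ± 3.31 to 199.5 ± 25.5 FPKM. Ptger4, a prostaglandin E2 receptor, fell from 10.5 ± 1.23 to 6.99 ± 1.48 FPKM (adjusted p 0.0113, or 0.0745 in the fit of 15 libraries).

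Alveolar type I cell genes fell almost throughout. Spock2, a matrix proteoglycan of these cells, stood at 31.9, 173, 108, 96.3 and 114 FPKM in control and at 6.68, 9.67, 10.05, 14.1 and 13.5 FPKM in SJY. Control 4 was the lowest control library and still lay above every SJY library. Spock2 fell by 3.02 on the log2 scale (SE 0.38, adjusted p 0.000176). Rtkn2 stood at 26.96, 55.1, 55.8, 49.6 and 66.3 FPKM in control and at 6.17, 9.39, 8.77, 17.4 and 7.67 FPKM in SJY, again without overlap, and fell by 2.27. The anchoring protein Akap5 fell from 74.8 ± 28.9 to 14.8 ± 3.96 FPKM and Col4a3, a basement membrane collagen, from 19.7 ± 4.89 to 5.16 ± 2.31 FPKM. Ager, the abundant type I cell receptor, fell from 1278 ± 254 to 751 ± 195 FPKM (adjusted p 0.00359, or 0.0688 in the fit of 15 libraries). All of 20 listed genes were tested, 19 were called lower, none higher, and the groups did not overlap for 19. Their median was -1.15, and with the length trend removed 19 were still called lower, with a median of -0.94. Their summed level was 2612 to 3812 FPKM in SJY and 5010.4 to 6719.7 FPKM in control.

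Type II cell genes fell in part, and the most abundant surfactant proteins were not called. Sftpc, a surfactant protein, stood at 13361, 12127, 9156, 13121 and 15268 FPKM in control and at 13774, 11968, 11378, 12627 and 10385 FPKM in SJY, with overlapping groups (log2 fold change -0.06, SE 0.14). Sftpa1 was at 3639.5 ± 437 FPKM in control and 3725 ± 379.6 FPKM in SJY (log2 fold change 0.04, SE 0.12). Sftpb did fall, from 3599.7 ± 547 to 2245 ± 413 FPKM (adjusted p 0.00372). The lamellar body transporter Abca3 fell from 105 ± 21.9 to 45.97 ± 12.6 FPKM, the phosphate transporter Slc34a2 from 574 ± 159 to 215 ± 44.1 FPKM and the desaturase Scd2 from 180.2 ± 33.4 to 57.5 ± 7.23 FPKM. Ctsh, a protease that processes surfactant, rose from 351 ± 48.6 to 639 ± 59.5 FPKM. Of 24 members 13 were called lower and 2 higher, and 9 were called lower with the length trend removed.

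Junction and channel genes were called lower in 16 of 24 members, and none was called higher. The epithelial sodium channel subunits Scnn1g and Scnn1a, which drive fluid out of the airspace, fell to 14.6 ± 2.997 and 98.1 ± 13.5 FPKM from 40.002 ± 4.31 and 221 ± 35.7 FPKM. Atp1b1, a subunit of the sodium pump, fell from 160.5 ± 25.005 to 75.9 ± 13.05 FPKM. The list's median length was 3336 bases, against 2300 bases for all genes tested, and 12 were called lower and 1 higher with the length trend removed. Krt19, a keratin of simple epithelium, fell from 134 ± 12.3 to 45.6 ± 11.3 FPKM. Lgals3, a lectin of macrophages and injured epithelium, rose from 235 ± 75.8 to 539 ± 67.7 FPKM. In their list of injury epithelium 3 of 16 were called higher (18.8%) and 6 lower (37.5%), against 17.6% and 26.1% of all genes.

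**Figure D4:**
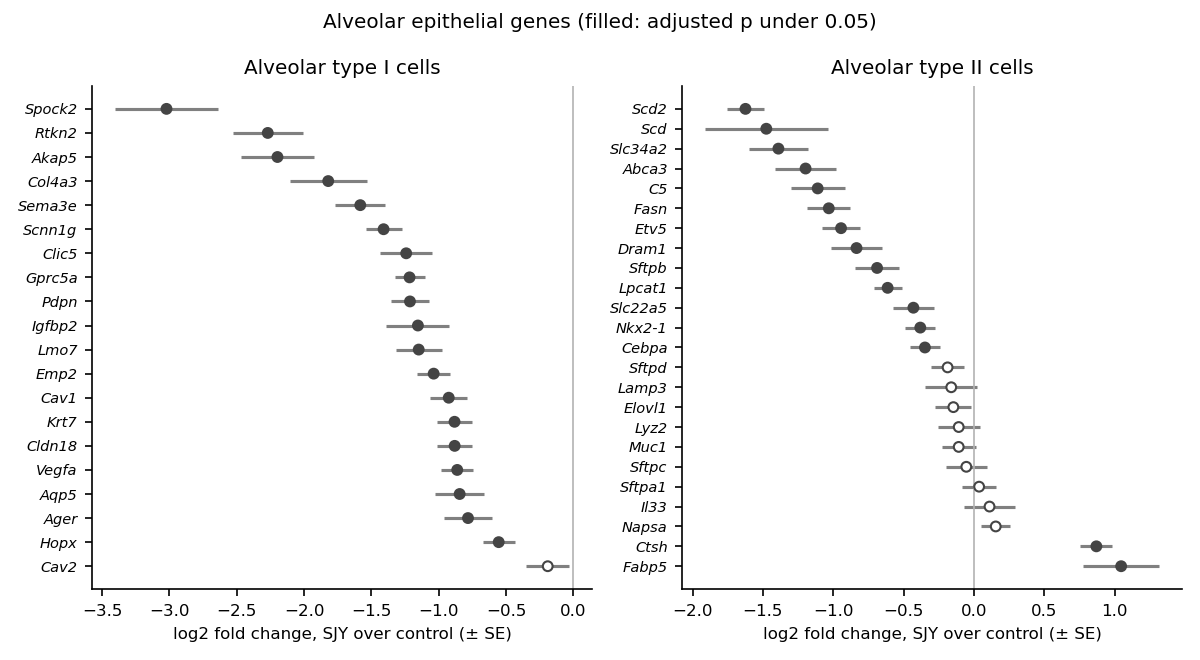
Log2 fold change of SJY over control with its SE (limma, 5 libraries a group) for the tested genes of alveolar type I cells (left) and type II cells (right), filled where the adjusted p is under 0.05. All type I genes lie below 0, and Sftpc and Sftpa1 lie near 0.

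Airway and ciliary genes gave fewer calls. Scgb1a1, the secretoglobin of club cells, was at 13336 ± 2468 FPKM in control and 10830.0 ± 2004 FPKM in SJY and was not called (log2 fold change -0.30, adjusted p 0.16), though it was with the length trend removed (0.00697). Of 12 airway secretory genes 4 were called lower (33.3%) and none higher, against 26.1% and 17.6% of all genes. With the length trend removed 8 were called lower. Cyp2f4, a cytochrome of club cells, fell from 50.2 ± 28.3 to 10.1 ± 6.695 FPKM, the retinal dehydrogenase Aldh1a1 from 229.5 ± 35.3 to 53.8 ± 20.2 FPKM and Cyp4b1 from 312 ± 39.97 to 140.3 ± 8.43 FPKM. Of 22 genes of cilia 9 were called lower (40.9%) and 1 higher (4.55%), 45.5% in all against 43.7% of all genes. The axonemal genes Ccdc40 and Hydin fell to 1.74 ± 0.736 and 2.06 ± 0.864 FPKM from 5.22 ± 1.82 and 5.07 ± 1.76 FPKM, but Hydin, at 16438 bases, was not called once the length trend was removed (adjusted p 0.15), and 6 of the 22 then remained lower.

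Enzymes that metabolise foreign compounds were among the largest falls. Fmo2, the flavin monooxygenase of lung, stood at 580.3, 997, 969.97, 996 and 979 FPKM in control and at 86.9, 96.2, 89.1, 178 and 143 FPKM in SJY. Every SJY library lay below every control library, and the fall was 2.95 on the log2 scale (SE 0.22, adjusted p 7.34e-07). Cyp2e1, which oxidises ethanol and other small molecules, fell from 48.5 ± 12.6 to 8.64 ± 4.62 FPKM (adjusted p 5.67e-05), and the carboxylesterase Ces1d from 365 ± 52.7 to 118 ± 12.5 FPKM. Cyp26b1, which degrades retinoic acid, rose from 5.24 ± 1.201 to 15.4 ± 5.52 FPKM (adjusted p 0.000317, or 0.0707 in the fit of 15 libraries), and Cyp1b1, a target of the aryl hydrocarbon receptor, rose from 4.19 ± 1.04 to 11.4 ± 1.84 FPKM. In all 19 of 31 members were called lower, among them 1 that passed the filter through control alone, and 4 higher, with a median of -0.77, and 18 were called lower with the length trend removed.

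Antioxidant genes were called in both directions, with the lower ones near the share of all genes. Txn1, thioredoxin, rose from 236 ± 77.9 to 499.96 ± 111 FPKM. Prdx6, a peroxiredoxin that also handles surfactant lipid, fell from 487 ± 32.5 to 229 ± 18.9 FPKM, and the glutathione synthesis subunit Gclm from 20.1 ± 3.26 to 11.4 ± 2.03 FPKM. Of 24 genes 12 were called higher (50%) and 6 lower (25%), against 17.6% and 26.1% of all genes.

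Endothelial genes changed in both directions. Ptprb, a phosphatase of the vascular junction, fell from 49.8 ± 17.6 to 12.4 ± 2.502 FPKM, Gpihbp1, which anchors lipoprotein lipase, from 50.95 ± 14.7 to 19.03 ± 7.77 FPKM, Esm1 from 33.5 ± 14.9 to 6.31 ± 2.22 FPKM and Lyve1, a hyaluronan receptor, from 126 ± 14.9 to 54.1 ± 7.72 FPKM. The adhesion molecules Selp and Vcam1, which slow leukocytes on the vessel wall, rose to 8.55 ± 1.46 and 41.5 ± 6.95 FPKM from 1.02 ± 0.222 and 18.8 ± 3.63 FPKM. Of 27 endothelial genes 4 were called higher (14.8%) and 8 lower (29.6%), near the shares of all genes. With the length trend removed 7 were called in each direction. Kit, Gata2 and the serotonin transporter Slc6a4, listed for mast cells, fell to 23.7 ± 4.68, 61.9 ± 13.4 and 8.47 ± 0.831 FPKM from 47.8 ± 6.01, 103 ± 19.1 and 13.4 ± 2.8997 FPKM, while Cpa3 and Fcer1a of the same list stayed below the filter. In the fit of 15 libraries Gata2 and Slc6a4 were not called (adjusted p 0.134 and 0.261). Of the 5 tested genes in that list of mast cells, basophils and eosinophils, 3 were called lower and none higher. Their log2 fold changes ran from -0.99 to 1.20. Without SJY 1 and control 4, 1 was called higher and 3 lower.

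Counts of matrix genes lay near those of all genes in both directions. Dcn, the small proteoglycan decorin, rose from 49.7 ± 7.06 to 184 ± 22.1 FPKM and the fibrillar collagen genes Col1a1 and Col3a1 rose to 56.04 ± 8.65 and 237 ± 31.5 FPKM from 15.1 ± 4.45 and 122 ± 26.3 FPKM. Col12a1, a fibril-associated collagen, fell from 21.5 ± 4.65 to 6.66 ± 0.865 FPKM and the related Col6a5 from 26.8 ± 5.26 to 4.62 ± 1.604 FPKM. Col6a5 is in none of the lists. Of 25 fibroblast and collagen genes 6 were called in each direction, 24% each, against 17.6% higher and 26.1% lower over all genes. Loxl1, a cross-linker of elastin, rose from 13.7 ± 2.598 to 35.2 ± 4.65 FPKM, while Ccn2, a matricellular growth factor, fell from 217 ± 19.3 to 53.6 ± 18.3 FPKM and Ltbp4, which binds latent TGF-beta, from 149.8 ± 29.1 to 57.1 ± 7.05 FPKM. Elastic fibre and proteoglycan genes were called higher in 6 and lower in 8 of 26 (23.1% and 30.8%), and with the length trend removed in 9 and 6.

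The inhibitors of metalloproteinases did not move together. Timp1 rose from 34.4 ± 12.5 to 342 ± 58.7 FPKM (log2 fold change 3.32, adjusted p 9.39e-08), Timp3 fell from 774 ± 211 to 219 ± 40.3 FPKM (log2 fold change -1.77, adjusted p 4.62e-05) and Timp2 fell from 209.6 ± 36.5 to 105 ± 18.5 FPKM. Reck, a membrane-bound inhibitor, fell from 26.3 ± 5.81 to 8.699 ± 1.64 FPKM. Mmp9, the neutrophil gelatinase, rose from 0.7199 ± 0.382 to 26.7 ± 4.71 FPKM and Slpi, an inhibitor of neutrophil elastase, from 80.9 ± 48.5 to 373 ± 91.7 FPKM. Of 19 members 8 were called higher (42.1%) and 4 lower (21.1%), against 17.6% and 26.1% of all genes.

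The TGF-beta receptor Tgfbr2 and the BMP receptor Bmpr1a fell. Tgfbr2 went from 70.8 ± 25.1 to 20.05 ± 4.36 FPKM and Bmpr1a from 20.7 ± 5.74 to 6.99 ± 1.33 FPKM. Axin2, a feedback target of Wnt signalling, fell from 27.1 ± 8.83 to 8.43 ± 1.83 FPKM and the ligand Wnt7a from 10.8 ± 1.95 to 3.396 ± 1.45 FPKM. The secreted antagonists Sfrp2 and Fst rose to 8.87 ± 2.98 and 21.7 ± 2.76 FPKM from 1.23 ± 0.838 and 7.98 ± 2.93 FPKM. In this list of 37 genes 3 were called higher and 16 lower, or 4 and 13 with the length trend removed. Among kinases and their regulators the phosphatidylinositol kinase subunit Pik3r1 fell from 30.6 ± 4.37 to 13.7 ± 1.08 FPKM and Egfr from 3.43 ± 1.11 to 1.32 ± 0.258 FPKM, whereas the Src family kinase Fgr of myeloid cells rose from 25.8 ± 5.42 to 99.9 ± 8.41 FPKM. The counts there were 8 higher and 10 lower of 31 (25.8% and 32.3%), or 11 and 7 with the length trend removed.

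Cell cycle genes rose in part, from low levels. Cdk1, the kinase of mitotic entry, rose from 3.39 ± 1.66 to 10.1 ± 3.24 FPKM, Tk1, thymidine kinase, from 3.24 ± 0.5404 to 11.8 ± 2.75 FPKM, Birc5 from 2.702 ± 0.8904 to 7.47 ± 2.04 FPKM and Ube2c from 1.12 ± 0.404 to 3.83 ± 0.7201 FPKM. The cyclin Ccnd2 fell from 16.5 ± 6.78 to 5.84 ± 1.43 FPKM. Of 36 tested members 21 were called higher and 2 lower, with a median of 0.56, and 27 were called higher with the length trend removed.

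Glycolytic genes rose in 13 of 26 members and fell in 3. The lactate exporter Slc16a3 rose from 5.86 ± 0.871 to 37.8 ± 6.02 FPKM, Hk3, the hexokinase of myeloid cells, from 5.56 ± 1.13 to 21.6 ± 6.97 FPKM and Pgk1 from 69.4 ± 2.42 to 155 ± 13.9 FPKM. Vegfa, a growth factor for endothelium, fell from 474 ± 65.2 to 260.2 ± 31.7 FPKM (adjusted p 0.000151, or 0.128 in the fit of 15 libraries). Lipid synthesis genes fell in 17 of 32 and rose in 3. The acyltransferase Gpam fell from 16.5 ± 5.79 to 4.94 ± 1.59 FPKM and the desaturase Fads2 from 22.5 ± 2.11 to 8.15 ± 1.92 FPKM, while Nr1h3, a sterol-sensing nuclear receptor, rose from 44.9 ± 4.65 to 93.2 ± 8.52 FPKM. Their median length was 3378 bases, and 11 were called lower and 5 higher with the length trend removed. Amino acid transporters were called lower in 9 and higher in 5 of 20, with Slc7a10 falling from 33.4 ± 4.06 to 6.64 ± 2.14 FPKM and the peptide transporter Slc15a2 from 13.3 ± 4.72 to 3.92 ± 1.49 FPKM.

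Genes of the respiratory chain and ribosome, which are short, rose in part. Of 13 mitochondrially encoded genes 11 were called higher, led by Mt-nd2 (3226 ± 1122 to 6225 ± 2007 FPKM) and Mt-nd1 (3110.0 ± 901 to 5883 ± 1953 FPKM). In the fit of 15 libraries these were not called (adjusted p 0.0802 and 0.0801), and with the length trend removed 6 of the 13 were called higher and 1 lower. Nuclear genes of the chain were called higher in 15 and lower in 3 of 26, or 12 and 3 with the length trend removed. Cox5b rose from 87.4 ± 23.97 to 171 ± 44.4 FPKM and Ppargc1a, a coactivator of mitochondrial genes, fell from 2.49 ± 0.665 to 0.743 ± 0.305 FPKM. Ribosomal protein genes had a median length of 765 bases and a median log2 fold change of 0.32, with 15 of 28 called higher and none lower. With the length trend removed the median was 0.16, with 8 called higher and 1 lower. What the length trend contributes to these rises was not tested beyond this.

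Circadian clock genes fell in 12 of 18 members and early response genes in 11 of 21. The transcription factor Tef and the repressors Bhlhe41 and Per2 are shown by their promoters, the 250 bases before the RefSeq gene start in GRCr8, at chr7:115206577-115206826 (plus strand), chr4:180569356-180569605 (minus strand) and chr9:99496994-99497243 (minus strand), because each holds a motif read by clock factors. Capitals mark the E-box CACGTG in Tef and Bhlhe41 and the D-box TTATGTAA in Per2, on either strand.
Tef: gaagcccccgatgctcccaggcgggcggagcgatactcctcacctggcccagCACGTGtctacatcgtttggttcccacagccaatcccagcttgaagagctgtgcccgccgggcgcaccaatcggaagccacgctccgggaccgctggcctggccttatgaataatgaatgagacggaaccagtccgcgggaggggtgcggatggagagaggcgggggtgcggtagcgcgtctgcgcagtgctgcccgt
Bhlhe41: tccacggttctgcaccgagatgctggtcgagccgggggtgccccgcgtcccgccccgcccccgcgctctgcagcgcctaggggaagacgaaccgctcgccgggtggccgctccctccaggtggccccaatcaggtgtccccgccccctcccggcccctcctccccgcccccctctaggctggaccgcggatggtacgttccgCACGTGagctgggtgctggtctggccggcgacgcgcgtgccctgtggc
Per2: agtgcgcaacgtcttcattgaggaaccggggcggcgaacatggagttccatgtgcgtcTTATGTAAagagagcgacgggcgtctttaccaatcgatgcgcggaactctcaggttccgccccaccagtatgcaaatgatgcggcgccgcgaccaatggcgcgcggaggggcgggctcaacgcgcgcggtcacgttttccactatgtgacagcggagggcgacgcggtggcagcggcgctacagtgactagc
Of 18 tested clock genes 15 had a promoter in the table, 4 of them (26.7%) held the E-box and 1 (6.67%) the D-box, against 5.79% and 0.816% of all promoters of this length and 7.93% and 0.424% of those of tested genes.

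Per2 stood at 33.6, 45.95, 43.1, 39.6 and 36.1 FPKM in control and at 8.03, 11.5, 14.1, 19.2 and 14.9 FPKM in SJY, without overlap, and fell by 1.53 on the log2 scale (SE 0.18, adjusted p 5.03e-05). Tef fell from 69.8 ± 14.3 to 23.99 ± 3.99 FPKM, Bhlhe41 from 14.7 ± 1.94 to 4.33 ± 1.88 FPKM and Hlf, a relative of Tef, from 10.5 ± 3.31 to 3.03 ± 0.777 FPKM. Nfil3, which binds the D-box as a repressor, rose from 6.12 ± 3.19 to 18.2 ± 2.86 FPKM (adjusted p 0.00039). Of 18 clock genes 12 were called lower and 2 higher. Since clock transcripts change over the day and the labels give no hour of sampling, a difference in hour between the groups was not tested.

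Fosb, an early response gene, stood at 145, 71.8, 36.1, 25.3 and 6.98 FPKM in control and at 5.88, 6.27, 2.99, 6.01 and 4.26 FPKM in SJY. The control libraries thus spread widely while the SJY libraries lay close together, just below the lowest control library. Egr1 fell from 64.3 ± 20.6 to 32.2 ± 7.9998 FPKM and Klf6 from 41.7 ± 5.02 to 19.5 ± 5.08 FPKM, and 11 of 21 early response genes were called lower and none higher, or 7 in all without control 6. Of 20 genes that respond to glucocorticoids 8 were called higher (40%) and 7 lower (35%), against 17.6% and 26.1% of all genes. Zbtb16 fell from 29.4 ± 10.7 to 4.65 ± 3.32 FPKM and Klf9 from 41.3 ± 7.91 to 11.7 ± 2.46 FPKM. Tsc22d3, the leucine zipper induced by glucocorticoids, fell from 302 ± 33.1 to 143 ± 16.3 FPKM. The 8 that rose included Il1r2, Lcn2, Mt2A and Mt1, all given with other groups above. Chaperones gave 9 higher and 7 lower of 30 (30% and 23.3%), with the small heat shock protein Cryab falling from 115 ± 9.61 to 54.95 ± 19.3 FPKM and Sdf2l1 of the endoplasmic reticulum rising from 19.9 ± 4.02 to 40.6 ± 5.84 FPKM.

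Of 27 T and NK cell genes 6 were called higher (22.2%) and 4 lower (14.8%), against 17.6% and 26.1% of all genes, so the share called was not above the background. Gzma, a protease of cytotoxic lymphocytes, stood at 20.3, 11.6, 13.9, 14.1 and 23.6 FPKM in control and at 82.1, 91.01, 62.2, 47.8 and 68.9 FPKM in SJY, without overlap (log2 fold change 2.02 ± 0.20, adjusted p 1.17e-05). Cst7, a protease inhibitor of cytotoxic cells and neutrophils, rose from 16.5 ± 4.699 to 61.3 ± 10.3 FPKM and Cd8a, the coreceptor of cytotoxic T cells, from 16.8 ± 2.09 to 36.2 ± 10.4 FPKM. Cd4 fell from 40.6 ± 13.2 to 20.1 ± 4.93 FPKM and Cd3e, a chain of the T cell receptor complex, from 14.5 ± 3.54 to 7.702 ± 3.97 FPKM (adjusted p 0.00573 and 0.0159). In the fit of 15 libraries neither Cd4 (0.105) nor Cd3e (0.114) was called, and Cd3e was not called without SJY 1 and control 4 (0.0522). Of 21 B cell genes 2 were called higher and 6 lower, 8 in all (9.52% and 28.6%), but 4 without SJY 3, SJY 5, control 6 or control 8 and 5 without control 7, and 3 higher and 2 lower with the length trend removed. Cd22, an inhibitory receptor of B cells, rose from 5.23 ± 1.62 to 12.2 ± 2.81 FPKM and Sdc1, found on plasma cells and epithelium, fell from 102 ± 11.2 to 52.1 ± 4.76 FPKM.

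Markers of cells that could enter with the tissue were also measured. Hbb, a haemoglobin chain of red cells, stood at 66.6, 815, 415, 104 and 115 FPKM in control and at 733, 399.99, 624, 2442 and 1168 FPKM in SJY. The groups overlapped, and the call (log2 fold change 2.17, adjusted p 0.0447) did not hold without SJY 1 (0.0689), SJY 4 (0.0604), SJY 5 (0.0925), SJY 6 (0.0877), control 4 (0.0819), control 7 (0.101) or control 8 (0.0931). Of 7 tested genes of blood cells and platelets 2 were called higher (28.6%), and of 6 muscle genes 1 (16.7%), against 17.6% of all genes. Of 6 adipose and mesothelial genes none was called higher and 2 were called lower (33.3%), against 26.1% of all genes. The count for blood ran from 0 (without SJY 1, SJY 5, SJY 6, control 7 or control 8) to 5 (without control 5), and that for muscle was 2 without SJY 6 or control 4. The blood list had a median length of 557 bases. With the length trend removed none of its 7 genes was called, Hbb included (adjusted p 0.0814). Genes of smooth muscle and pericytes gave 1 call higher (5.88%) and 4 lower (23.5%) among 17, not above the 17.6% and 26.1% of all genes. The count was 3 in all without SJY 3, SJY 4, control 6 or control 7.

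Other genes outside the lists that led by size or by abundance were the following. Susd2, a membrane protein, fell from 35.7 ± 10.1 to 4.56 ± 1.37 FPKM, the secreted Scube2 from 16.6 ± 4.24 to 2.58 ± 1.41 FPKM and Pdzd2 from 28.6 ± 12.8 to 4.51 ± 1.42 FPKM. Gsn, the actin-severing gelsolin, fell from 1894 ± 354 to 630.2 ± 67.6 FPKM. The selenium carrier Selenop fell from 2134 ± 369 to 1143 ± 207 FPKM (adjusted p 0.000584, or 0.245 in the fit of 15 libraries). Tmsb4x, an actin-binding peptide abundant in leukocytes, rose from 4613 ± 1145 to 8824 ± 1974 FPKM.

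**Figure D5:**
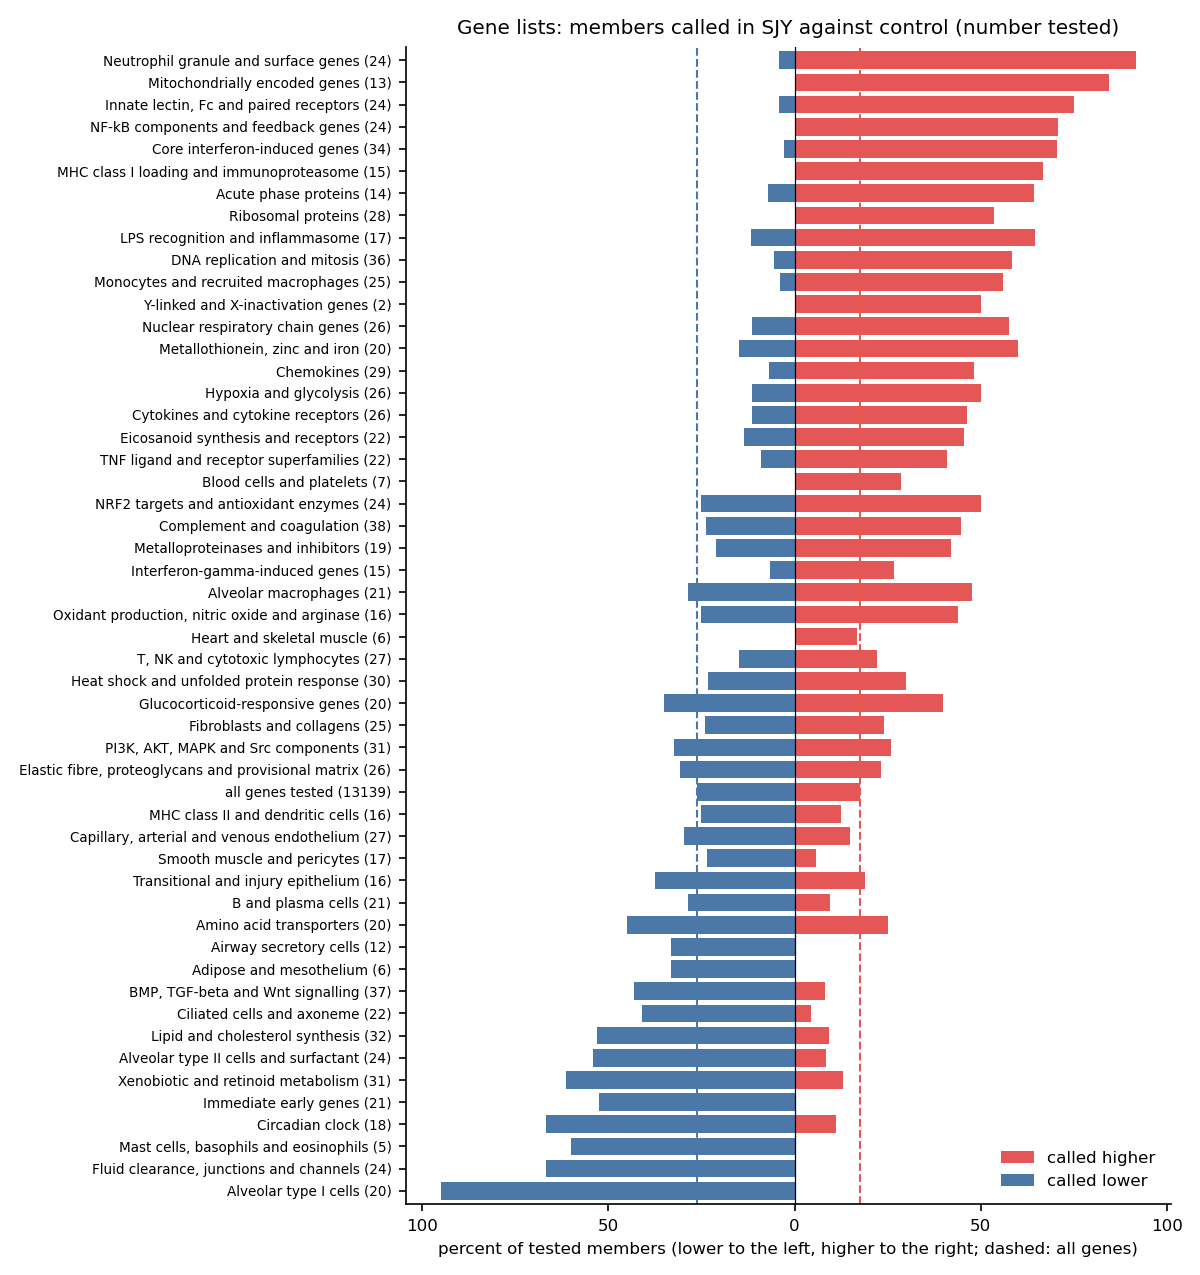
Percent of tested members called higher (right) and lower (left) in SJY for each of the 51 gene lists and for all genes, with dashed lines at the 17.6% and 26.1% of all genes called in each direction. Neutrophil genes reach 91.7% higher and type I cell genes 95.0% lower.

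The filter itself admitted some genes through 1 group. Of the 13139 genes, 32 reached 1 FPKM in no library but those of SJY and 57 in no library but those of control, and 8 of these were listed genes, counted with their lists above. Just inside, with 5 libraries at 1 FPKM, lay Clec4b2 at 0.191 ± 0.129 FPKM in control and 22.2 ± 4.76 in SJY. Just outside, with 4, lay Csf3, the granulocyte colony-stimulating factor, at 0.0127 ± 0.0285 and 5.38 ± 3.74 FPKM, and Ca12 at 3.93 ± 3.43 and 0.327 ± 0.145 FPKM.

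Set beside LPS alone, few differences could be shown. In 1 fit of all 15 libraries 1 of 13139 genes (0.00761%) differed between SJY and ALI, and 1561 had an unadjusted p under 0.05. That gene was Gzma, at 20.9, 35.5, 24.2, 20.96 and 18.7 FPKM in ALI, below all SJY libraries (log2 difference 1.51 ± 0.22, adjusted p 0.0429). Gzma was not called between SJY and ALI in the fit of these 10 libraries alone, and ALI 1 stood far from its group, with 37.7% of its summed FPKM on mitochondrial genes. Without ALI 1 the test called 180 genes. In the fit of all 15 libraries ALI against control gave 2335 calls (17.8%), ALI 1 included, and SJY against control gave 4320. Both comparisons share the control libraries, so only their own values are given. S100a8 was at 1842 ± 1819.5 FPKM in ALI (log2 difference of SJY from ALI 1.21 ± 0.49), Ifit1 at 8.48 ± 3.62 (0.93 ± 0.30), Spock2 at 24.8 ± 18.5 (-0.82 ± 0.49), Fmo2 at 149 ± 91.5 (0.06 ± 0.54) and Per2 at 8.43 ± 4.897 (0.75 ± 0.31). For these 5 genes the difference did not pass the test, which does not show that the groups were alike.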

How the data were processed

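Lung RNA was extracted with TRIzol and made into libraries with the NEBNext Ultra kit, per the labels' protocols. The tools named are cutadapt, HISAT2 and StringTie with the build Rnor_6.0, per the submitters' processing notes, and their versions and roles were not given in the sources used here. The deposited table holds FPKM for 22250 genes, in columns matched to libraries by name, and whether counting used strand is not stated. Whole reads were recovered from the FPKM steps for 100% of the 13139 tested genes and gave 12072000 to 14010000 reads a library. The deviation allowed from a whole number was 0.002 reads or, where larger, 3e-07 of the count.

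Genes with at least 1 FPKM in at least 5 of the 10 libraries were tested on log2(FPKM + 1) with limma 3.58.1 (R 4.3.3, trended and robust variance) and Benjamini-Hochberg adjustment over all tested genes at 0.05. The deposited FPKM values were not rescaled between libraries. Values for ALI come from 1 such fit of all 15 libraries. The test was checked on simulated data. The 51 gene lists hold 1222 genes, of which 1167 were in the table and 1023 were tested, and unmatched names such as Foxj1 and Pecam1 were not analysed here. A few genes that the rule below names are not reported here. Members and lists were chosen with earlier results of these data known.

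Genes named in the text are the 12 genes that rose most and the 12 that fell most, of those called whose groups do not overlap and whose higher mean reaches 5 FPKM, up to 4 called members per direction and list (or the 3 most abundant where none was called), the 8 called genes per direction with the largest difference in mean FPKM, genes called between SJY and ALI, and defining members and lung marker genes whether called or not. Alternatives were a pseudocount of 0.1, other filters and scalings, array weights, limma without trend, each library left out, the replicate number as a block and, chosen after seeing the data, voom on recovered reads, removal of a loess trend of log2 value on gene length, and leaving out SJY 1 with control 4. Promoters are from the RefSeq table of GRCr8, matched by symbol.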

Additional observations from a re-analysis of the deposited data

Results flagged for a closer look

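Each gene named in the report, the read total and the mitochondrial share were searched in both groups for a single library lying apart from the other 4 by Dixon's criterion. Of 400 groups of 5 libraries 30 (7.5%) met it, where chance gives about 1 in 20. Control 4 was the library apart in 17 of these, SJY 1 in 7, control 5 in 3, and SJY 4, SJY 5 and SJY 6 in 1 each.

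Control 4 was the highest control library for genes that were higher in SJY. It stood at 155 FPKM for Cyba and 29.4 FPKM for Ncf1, both oxidase subunits, at 369 FPKM for Lgals3, 92.1 FPKM for Psmb10, 26.9 FPKM for Sdf2l1, 1.24 FPKM for Tnfrsf9 and 374.0 FPKM for Txn1. It was the lowest control library for genes that were lower in SJY, at 240.5 FPKM for Cyp4b1, 580.3 FPKM for Fmo2, 1.56 FPKM for Egfr, 6.45 FPKM for Gpam, 9.62 FPKM for Lifr, 1.37 FPKM for Ppargc1a, 66.6 FPKM for Slc39a4, 26.7 FPKM for Tgfbr2 and 403 FPKM for Timp3. Scd2 went the other way, at 239.6 FPKM in control 4, the highest control library for a gene that was lower in SJY.

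SJY 1 was the lowest SJY library for genes that were lower in SJY, at 24.3 FPKM for Abca3, 139 FPKM for Slc34a2, 11.6 FPKM for Cd4, 0.87 FPKM for Egfr and 6.03 FPKM for Plau. It was the highest for Txn1, at 695 FPKM, and had 17.1% of its summed FPKM on mitochondrial genes. Control 5 was highest for Ager, at 1722 FPKM, and for Gsn, at 2519.7 FPKM, and lowest for Gbp4, at 1.26 FPKM. In SJY, Ccl2 was lowest in SJY 6, at 36.0 FPKM, Lcn2 was lowest in SJY 5, at 1480.4 FPKM, and Marco was highest in SJY 4, at 4.89 FPKM.

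Gzma was called between SJY and LPS alone in the fit of 15 libraries, with a log2 difference of 1.51. That test called 0 genes in the fit of these 10 libraries alone and 180 without ALI 1.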

How the results depend on the processing

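No called gene was called in the opposite direction under any alternative run, but the balance of calls turned with the length trend removed, from 2316 higher and 3427 lower to 2729 and 2599. Of the 51 lists, whose balance was compared under 4 alternatives, 4 turned then (B cells, smooth muscle, elastic fibre and kinases), 2 with median-of-ratios scaling, 2 without SJY 1 and control 4 and 0 with voom. Over all genes, the following counts moved by more than 1.5 times. With the replicate number as a block, 3351 genes were called and 1777 were lower, against 5743 and 3427. Voom on recovered reads gave 1762 genes changed at least 2-fold, against 1163. Between SJY and ALI, where 1 gene was called, the fit of those 10 libraries, a pseudocount of 0.1, median-of-ratios scaling and removal of the length trend each gave 0, and leaving out 1 library gave 0 to 180. Leaving out 1 library gave 4806 (without control 7) to 6157 (without control 4) calls for SJY against control, 1987 to 2525 higher, 2802 to 3666 lower and 1014 to 1447 changed at least 2-fold. The fit of 15 libraries called 4320 genes, and array weights called 7352. Of 301 called named genes, 273 stayed called whichever library was left out, 255 in the fit of 15 libraries, 271 with the length trend removed and 238 with the replicate block. Counts of list members moved by more than 1.5 times in 12 lists with the block, 8 in the fit of 15 libraries, 6 at a minimum mean of 5 FPKM, 5 each with array weights and with the length trend removed, and at most 4 under any other alternative.

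The labels reuse the replicate numbers 4, 5 and 6 in both groups, and nothing says that they pair animals. Deviations from the group means correlated at 0.059, 0.21 and 0.022 for these pairs, and only number 5 correlated best with its own number, so the numbers were not taken as a pairing. The replicate block moved the count of calls from 5743 to 3351. Numbers 1 and 3 occur only in SJY and 7 and 8 only in control. With the block these libraries add nothing to the comparison, which then rests on numbers 4, 5 and 6.

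Depth limits genes of few reads, such as Tnf. Strand, the gene annotation's release and the animals behind each library were not given in the sources used here, and reads of overlapping genes or close copies cannot be told apart.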

Other observations

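Of the listed genes, 144 lay below the filter of 1 FPKM in 5 libraries and were not tested. Of these, 14 had groups that did not overlap, 9 with all SJY libraries above control and 5 with all below. That is 9.72%, against 3.58% of all 9111 genes below the filter, of which 4010 were listed at 0 in all 10 libraries, and 6.39% of the others. The next genes were picked after their values were seen, most of them because their groups did not overlap. Nos2, the inducible nitric oxide synthase, stood at 0.106, 0.224, 0.1601, 0.271 and 0.245 FPKM in control and at 0.875, 2.19, 2.08, 1.41 and 2.28 FPKM in SJY. Adamts4, a protease of cartilage and lung proteoglycans, stood at 0.0556, 0.0699, 0.161, 0.01398 and 0.0726 FPKM in control and at 0.751, 3.06, 1.56, 1.02 and 4.49 FPKM in SJY. Cxcl6, a neutrophil chemoattractant, went from 0.287 ± 0.1397 to 2.12 ± 1.3005 FPKM and Fpr2, a formyl peptide receptor, from 0.2505 ± 0.195 to 1.43 ± 0.496 FPKM. Reg3g, an antibacterial lectin of epithelium, was listed at 0 in all control libraries and at 0.597, 6.24, 1.5003, 0.286 and 3.17 FPKM in SJY. All SJY libraries lay above control for each of these 5 genes. Nr4a3, an early response nuclear receptor, lay lower, at 0.448 ± 0.146 FPKM in SJY and 1.52 ± 0.807 FPKM in control, without overlap.

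Other genes typical of inflamed lung were near 0 or overlapped. Tnf, the cytokine often taken as a readout of LPS, stood at 0.0464, 0.0467, 0, 0 and 0 FPKM in control and at 0.0456, 0.173, 0, 0 and 0.0879 FPKM in SJY. Ifng, the interferon of T and NK cells, stood at 1.996, 0.772, 2.26, 0.309 and 1.604 FPKM in control and at 0.603, 0.573, 1.79, 0.867 and 0.145 FPKM in SJY. Mpo, the peroxidase made by neutrophil precursors, was at 0.204 ± 0.356 FPKM in control and 0.0858 ± 0.09496 FPKM in SJY, beside the high S100a8 of the same libraries. The Y-linked Kdm5d, listed to check the animals' sex, was at 16.7, 11.5, 12.4, 13.997 and 14.1 FPKM in control and at 9.73, 12.2, 14.1, 12.3 and 12.6 FPKM in SJY and was not called (log2 fold change -0.16, adjusted p 0.33, limma with Benjamini-Hochberg adjustment). The other tested gene of that list, Eif2s3y, was called higher, at 20.6 ± 4.1999 FPKM in control and 31.9 ± 3.69 FPKM in SJY.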
